A study of Mus musculus with 6 samples.

Results

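Imprinted genes, which are transcribed mainly or only from the copy inherited from 1 parent, were followed in resting CD4 T cells with and without the corepressor Trim28. The 49 genes were chosen by name, by a rule that uses no measured value of this table. Of them, 29 are known as paternally expressed and 20 as maternally expressed, in some cases only in certain tissues. RefSeq accessions of the table mapped to 32 of the 49, with 49 transcript rows between them, out of 16911 gene symbols named in all. A further 17 had no matching row and were not analysed here. Where a gene had several rows, it is represented by the 1 with the most reads. The series holds 3 libraries from wild-type littermates (WT1 to WT3) and 3 from Trim28 KO mice (KO1 to KO3), all of strain C57BL/6. The cells were naive CD4 T cells, helper T cells that have not met antigen, enriched on magnetic beads and sorted. How, and in which cells, Trim28 was deleted, how old the mice were and whether each library is 1 mouse are not stated in the labels. The comparison asks how far the level of imprinted transcripts in resting T cells depends on Trim28.

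An imprint is a mark of DNA methylation set in the egg or the sperm at an imprinting control region and kept through the divisions of the embryo. In the embryo the zinc finger proteins Zfp57 and Zfp445 bind the methylated copy of such regions and bring Trim28, which recruits the histone methyltransferase Setdb1 and keeps that copy methylated and silent. Several of the genes followed here, among them Kcnq1ot1, Airn, Mcts2, Nap1l5, Zrsr1, Peg13 and Impact, start in a region that is methylated on the maternal copy, so that RNA comes from the paternal one. RNA levels of an inbred strain do not separate the parental copies. A gene read from 1 copy that came to be read equally from both would be 2-fold higher, all else equal. No such rise follows for a gene already read from both copies, or for 1 that loss of an imprint would lower. Which copies were read in these cells was not measured.

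The letters TGCCGC, which Zfp57 reads when methylated, were searched on both strands of the windows from 250 bases before to 50 after each RefSeq start (GRCm38.p6, the assembly of mm10). The windows matched 40 of the 49 genes. The hexamer stood in 15 of their 59 windows (25.4%), where Snrpn and Snurf share a window and 2 of the Mest windows overlap, and in 11.6% of all 32851 windows. Among the 14 matched genes whose RNA could be tested it stood in 4, namely Mcts2, Nap1l5, Copg2 and Commd1. Stretches of 120 bases before the start are given for 3 of these, to show where the letters lie in genes whose levels follow, and for Kcnq1ot1, whose window holds none. They run 5′ to 3′ along the gene, with the hexamer or its reverse complement GCGGCA in capitals. They lie at chr2:152686898-152687017 (plus strand, Mcts2), chr6:58907132-58907251 (minus strand, Nap1l5), chr6:30896851-30896970 (minus strand, Copg2) and chr7:143296558-143296677 (minus strand, Kcnq1ot1). A match of letters does not show that a protein is bound, and no match says only that the letters are not in this window.
Mcts2: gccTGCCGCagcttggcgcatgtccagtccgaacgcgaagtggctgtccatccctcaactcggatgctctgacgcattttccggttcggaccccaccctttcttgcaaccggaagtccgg
Nap1l5: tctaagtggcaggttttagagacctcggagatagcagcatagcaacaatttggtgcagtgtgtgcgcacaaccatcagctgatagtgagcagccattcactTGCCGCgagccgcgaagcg
Copg2: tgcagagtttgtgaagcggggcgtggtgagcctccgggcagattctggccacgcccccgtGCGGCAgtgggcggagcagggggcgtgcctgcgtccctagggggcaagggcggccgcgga
Kcnq1ot1: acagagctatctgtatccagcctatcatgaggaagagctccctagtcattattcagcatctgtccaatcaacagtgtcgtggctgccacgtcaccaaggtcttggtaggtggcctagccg

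Depth ran from 22005759 reads (KO2) to 44372701 (KO1). Trim28 fell from a normalized read count of 8715 ± 622 to 871 ± 330 (SD, n = 3 per group), with a limma adjusted p of 0.000135. Cd4 was at 27990 to 34970 in every library. KO3 stood apart by RNA of other cell types. Its CD8 T cell marker Cd8b1 was at 4206 against 557 to 1032 elsewhere, its 6 B cell markers summed to 1466 against 171 to 321 in wild-type libraries, 188 in KO2 and 193 in KO1, and its 6 myeloid markers to 740 against 47.3 to 252. The 4 NK cell markers summed to 208 to 229 in wild-type libraries, 321 in KO1, 331 in KO2 and 1071 in KO3. No gene of these marker lists was called. Of fibroblast genes, Col1a1 and Col1a2 did not exceed 3.99 in any library. Col3a1 was at 0 in the wild-type libraries and KO1, at 1.46 in KO2 and at 11.2 in KO3. Mgp, of the same stromal and endothelial list, was at 1.39 to 2.32 in wild-type and 5.58 to 10.2 in knockout libraries. Its endothelial genes Pecam1 and Cdh5 overlapped between the groups. Y-linked transcripts were at 13625 in WT1 and 12677 in KO2 and at most at 2.39 in the other libraries. Fewer cells of a type and less RNA per cell cannot be told apart in such bulk samples.

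No imprinted gene tested in resting CD4 T cells passed the test for a difference between knockout and wild type. Of the 32 genes with a row, 18 had a mean normalized count of at least 10 over the 6 libraries and were tested, and 0 of these 18 were called in limma at a Benjamini-Hochberg adjusted p under 0.05, against 1.51% of all 13022 rows tested (1.19% higher and 0.315% lower in the knockout). None of their 28 rows was called either. An unadjusted p under 0.05 was reached by 1 of the 18, Igf2r, against 12.7% of all rows, and with limma's voom weights on recovered reads the counts were again 0 and 1. Fold changes ran from -0.16 (Peg13) to 0.29 (Nap1l5) on the log2 scale, and adjusted p from 0.331 to 0.973.

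The 95% interval of the log2 fold change ended below 1, a 2-fold rise, in each of the 18 genes, and above -1 in each. Of the 28 rows, 26 had an upper end under 1 and 25 lay between -1 and 1. The exceptions were second rows with low counts, of Airn (NR_027772, -0.51 to 2.78), Sfmbt2 (NM_001198808, -0.32 to 1.28) and Trappc9 (NM_001164642, -1.78 to 0.77). Over the 18 genes the upper ends ran from 0.09 (Peg13, 1.06-fold) to 0.81 (Nap1l5, 1.76-fold). Of all rows tested, 82.7% had an upper end under 1, and 92.7% of the 10148 rows with a mean of at least 50 did. The intervals are not adjusted for the number of genes, and those of low genes are drawn in by the pseudocount of 1. More genes stood above 0 than below, 14 against 4 (77.8% above, against 50.4% of all rows), and their median was 0.12 against 0.0019 over all rows. It was 0.11 for the 9 paternally and 0.14 for the 9 maternally expressed genes, with 7 above and 2 below 0 in each group.

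**Figure D1:**
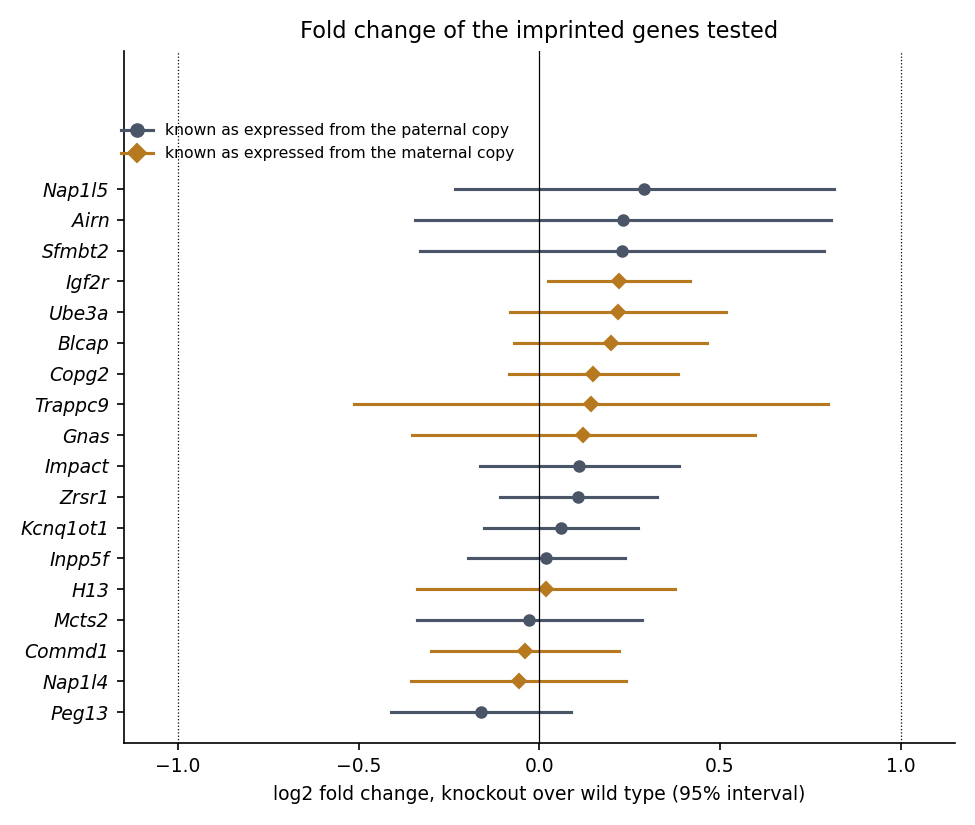
Log2 fold change of the 18 imprinted genes tested, knockout over wild type (horizontal axis), with its 95% interval from limma, n = 3 per group. Circles mark genes known as paternally expressed and diamonds those known as maternally expressed, and dotted lines stand at -1 and 1. Each interval lies between the dotted lines, and that of Igf2r alone does not reach 0.

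**Figure D2:**
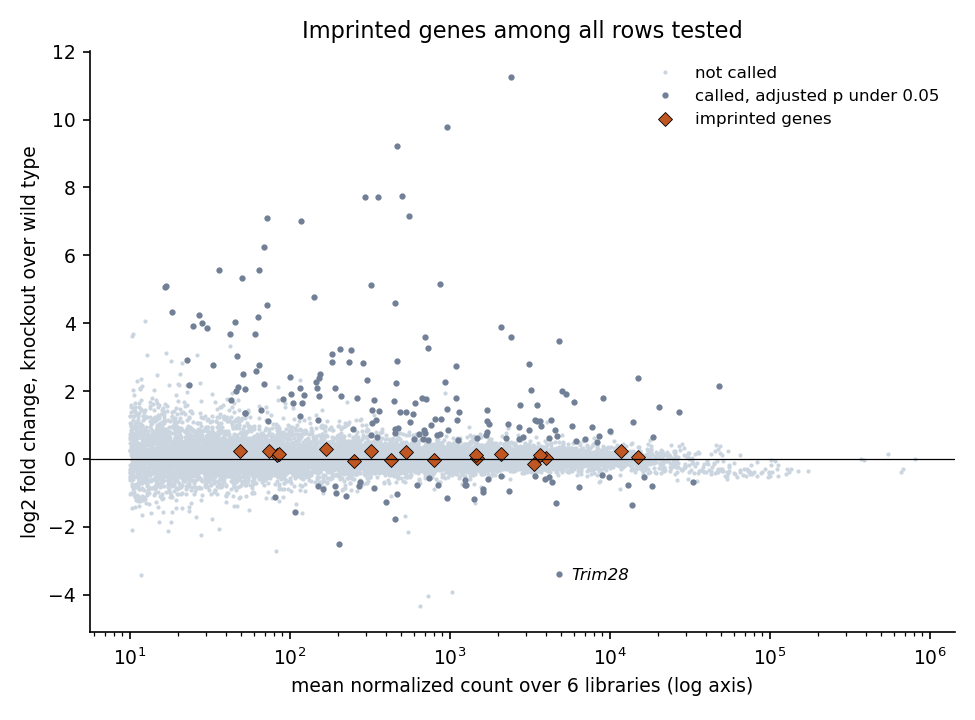
Mean normalized read count over the 6 libraries (horizontal, log axis) against the log2 fold change of knockout over wild type (vertical) for the 13022 rows tested. Dark points are the 196 rows called, and diamonds are the 18 imprinted genes, which lie between -0.16 and 0.29 and are not among the called rows.

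Igf2r and Airn are the classic pair of sense gene and silencing antisense RNA. Igf2r (row NM_010515, chromosome 17, 12682406 to 12769706 of mm10) encodes the receptor that sorts lysosomal enzymes and takes up Igf2 for destruction. Its normalized read count was 10560, 10528 and 11416 in WT1 to WT3 and 12781, 11779 and 13337 in KO1 to KO3. All knockout libraries thus lay above all wild-type ones, as in 9.21% of all rows tested. The difference was 0.22 on the log2 scale (SE 0.09, 95% interval 0.02 to 0.42, limma unadjusted p 0.0318, adjusted p 0.331), and an exact two-sided permutation test gave 0.1, the smallest p that 3 against 3 allows. It was the only 1 of the 18 genes whose groups did not overlap, where 18.8% of all rows did not.

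Airn, the long non-coding RNA whose transcription from the paternal copy silences Igf2r, starts inside that gene and overlaps it by 28396 bases on the opposite strand. Its main row (NR_027784) was at 50.2, 41.8 and 41.7 in wild-type cells and 57.8, 59.7 and 41.4 in knockout cells. KO1 and KO2 were above the wild-type range and KO3 was level with its lower end, so the groups overlapped (log2 fold change 0.23, 95% interval -0.34 to 0.81). Another row of Airn (NR_027772) had 6.97, 7.70 and 2.32 against 10.7, 5.83 and 29.5, and a further one (NR_027773), under the filter, had 10 reads in wild-type and 41 in the knockout libraries. The highest values of both these rows were in KO3, with 37 and 27 reads, the library that also held the B cell and CD8 T cell markers, whose part in these values was not tested. The labels do not say whether the sequencing kept strand information, so reads of Airn and of Igf2r introns cannot be told apart.

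Kcnq1ot1 (NR_001461, chromosome 7, 143213111 to 143296547) is the antisense RNA that silences a group of growth-limiting genes, Cdkn1c, Phlda2 and Slc22a18 among them, on the copy that transcribes it. It had the highest normalized count of the imprinted genes, 14962, 13615 and 15929 in wild-type cells and 14534, 15501 and 16318 in knockout cells. The groups overlapped throughout, and the log2 fold change was 0.06 (SE 0.09, 95% interval -0.15 to 0.27). The whole gene lies within Kcnq1 on the other strand. Of the genes it is known to silence, Cdkn1c, Phlda2 and Slc22a18 were nearly without reads in both groups. Cdkn1c, a brake on the cell cycle, had 6 reads in wild-type cells and 5 in knockout cells, summed over 3 libraries each. Phlda2, which limits growth of the placenta, had 3 and 2 reads, and the transporter gene Slc22a18 had 1 and 0. Nap1l4, a histone chaperone at the edge of the same domain, was transcribed, at 266, 248 and 259 against 262, 223 and 259 (log2 fold change -0.06, 95% interval -0.36 to 0.24). A second row of Nap1l4 (NM_001285490) was at 86.5, 71.5 and 95.8 against 63.5, 62.7 and 62.2, with every knockout value below every wild-type one (log2 fold change -0.41, SE 0.20, limma adjusted p 0.454).

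Peg13 and Trappc9 overlap as well, since the non-coding RNA Peg13 lies wholly within Trappc9, which encodes a subunit of a vesicle tethering complex, on the same strand. Peg13 (NR_002864, chromosome 15, 72805602 to 72810324) was at 3393, 3654 and 3526 in wild-type and 3446, 3355 and 2696 in the knockout libraries. KO2 and KO3 lay below the wild-type range, KO3 furthest, and KO1 inside it (log2 fold change -0.16, 95% interval -0.41 to 0.09). Trappc9 was far lower in counts, with its main row at 114, 72.6 and 60.2 against 96.4, 105 and 67.0. WT1 was its highest library and WT3 its lowest, and the log2 fold change of 0.14 (SE 0.29) turned to -0.05 without WT3. Another tested row of Trappc9 (NM_001164642) had a log2 fold change of -0.50 (SE 0.56).

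Several imprinted genes are intronless retrogenes inside a host gene. Mcts2, a copy of a translation factor gene that lies in H13, was at 392, 475 and 442 in wild-type and 480, 433 and 374 in the knockout libraries. H13, which encodes signal peptide peptidase, was at 1410, 1509 and 1432 against 1897, 1383 and 1206 in its main row. KO1 was the highest library of both genes, and KO3 was the lowest of both. Their log2 fold changes were -0.03 (95% interval -0.34 to 0.28) and 0.02 (-0.34 to 0.38). Transcripts of H13 that end before or after Mcts2 are known, and 3 rows of H13 were tested. The main row (NM_001159553) held 79.8% to 83.1% of their reads over the 6 libraries and the row NM_001159552 held 12.6% to 16.7%. The row NM_001159551 held 3.20% to 4.49% in the wild-type libraries and 6.38% in KO3, with KO1 (4.46%) and KO2 inside the wild-type range.

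Zrsr1, a retrogene related to the splicing factor subunit U2af1, lies within Commd1 on the opposite strand (chromosome 11, 22972005 to 22976496). It was at 3420, 3467 and 3735 in wild-type and 4076, 3972 and 3426 in the knockout libraries, with KO1 and KO2 above the wild-type range and KO3 inside it. The log2 fold change was 0.11 (SE 0.10, 95% interval -0.11 to 0.33). Commd1, which acts in copper balance and endosomal sorting, was at 781, 864 and 767 against 703, 867 and 783 (log2 fold change -0.04, 95% interval -0.30 to 0.22). The lower and the higher end of its range were both knockout libraries.

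Nap1l5, a retrogene of the nucleosome assembly family inside Herc3, had the largest fitted difference of the 18. Its count was 130, 169 and 148 in wild-type and 203, 227 and 129 in the knockout libraries. KO1 and KO2 lay above all wild-type libraries, and KO3 was level with the lowest of them, WT1. The log2 fold change was 0.29 (SE 0.23, 95% interval -0.23 to 0.81, limma adjusted p 0.648). On that scale Nap1l5 was at 0.53 without KO3 (limma adjusted p 0.132) and at 0.13 without KO2. Its host Herc3, a ubiquitin ligase gene, was at 7596 ± 655 and 7678 ± 485 (SD, n = 3 per group). Inpp5f encodes a phosphoinositide phosphatase, of which a shorter paternal transcript is the imprinted form. Its row was at 3900, 4166 and 3780 against 4105, 4316 and 3607, a log2 fold change of 0.02 (95% interval -0.20 to 0.24). The row was not tied to the shorter form here. Impact, an inhibitor of the stress kinase Gcn2 (chromosome 18), was at 1323, 1366 and 1499 against 1327, 1460 and 1761. Its highest value was in KO3, and the log2 fold change of 0.11 (SE 0.12) went to -0.0020 without KO3.

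**Figure D3:**
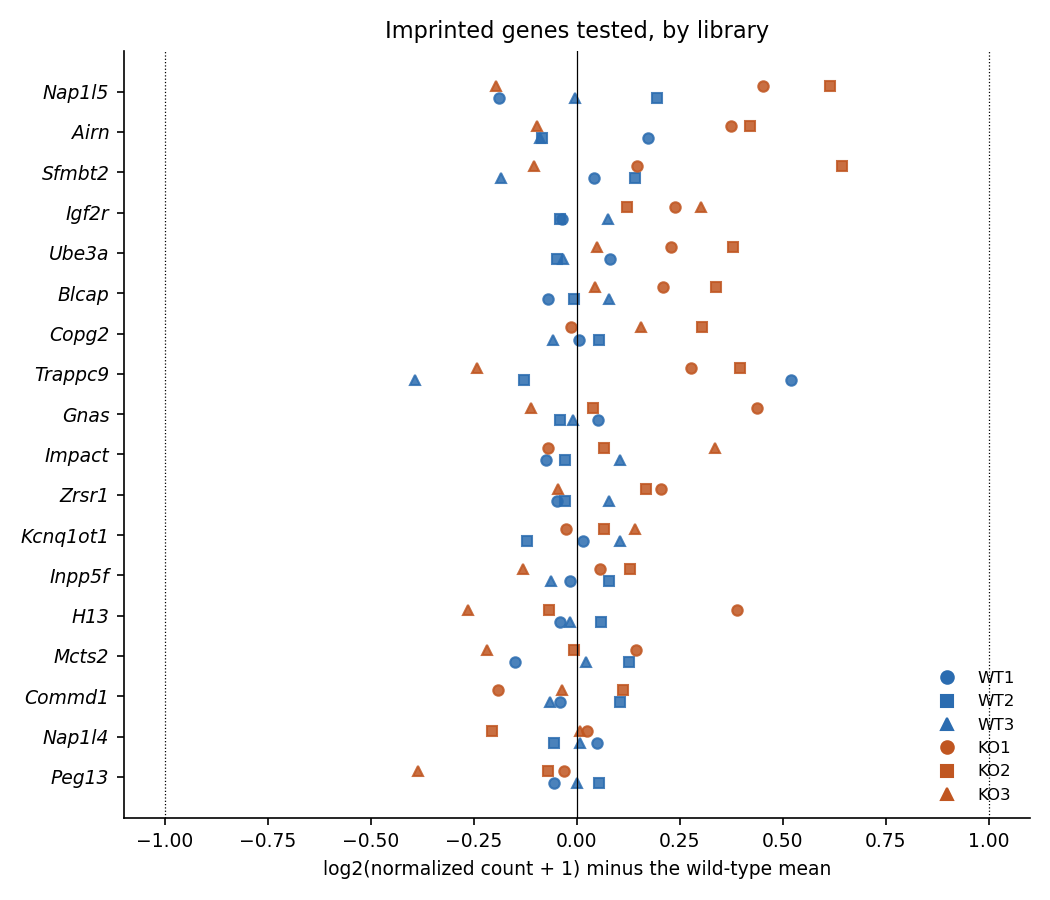
Each library's log2(normalized count + 1) minus the wild-type mean (horizontal axis) for the 18 imprinted genes tested, ordered by fold change, with wild-type libraries in blue, knockout libraries in orange and a symbol per library number. The colours overlap in every gene but Igf2r, and KO2 is the highest library in 8 genes and KO3 the lowest in 7.

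Maternally expressed genes known for imprinting in brain or placenta were also transcribed. Blcap, a small membrane protein gene that holds Nnat in an intron, was at 473, 494 and 524 in wild-type and 574, 628 and 512 in the knockout libraries. Copg2, a coat subunit of transport vesicles that meets Mest tail to tail, was at 1990, 2058 and 1907 against 1963, 2451 and 2212. In each of these genes 2 of the 3 knockout libraries were above the wild-type range. The log2 fold changes were 0.20 (SE 0.12) and 0.15 (SE 0.10), with intervals from -0.07 to 0.46 and from -0.08 to 0.38.

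Ube3a, the ubiquitin ligase gene lost in Angelman syndrome and read from the maternal copy in neurons, was at 315, 288 and 291 against 349, 388 and 308. Only KO3 fell inside the wild-type range (log2 fold change 0.22, SE 0.13, limma adjusted p 0.547). Gnas, which encodes the stimulatory G protein alpha subunit and relatives made from other promoters, had 4 tested rows of the 12 transcripts that RefSeq lists. The row with the highest total (NM_019690) was at 82.3, 77.0 and 78.8 against 108, 81.6 and 73.3. Its log2 fold change was 0.12 (SE 0.21), those of the other 3 were -0.16, -0.22 and -0.23, and with the rows summed the value was -0.07. The labels do not say how a read common to several transcripts was counted, so these rows are not gene totals.

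Sfmbt2, a Polycomb group gene imprinted in the placenta, was at 69.7, 74.8 and 59.5 against 75.0, 106 and 63.0 in its main row. Its second tested row (NM_001198808) was at 18.1, 18.7 and 19.3 against 22.1, 37.9 and 22.3. In that row every knockout value was above every wild-type one, with KO2 far above the others (log2 fold change 0.48, SE 0.35, limma adjusted p 0.614). With Igf2r and the second Nap1l4 row, it was 1 of 3 among the 28 tested rows whose groups did not overlap, against the 18.8% of all rows.

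The 18 genes were steady among wild-type libraries. Their coefficient of variation had a median of 5.12% in the wild type and 11.9% in the knockout, against 10.8% and 14.5% over all rows tested. Trappc9 was the most uneven in the wild type (34.4%). KO2, which with WT1 carried Y-linked transcripts, was the highest library in 8 of the 18 genes, against 17.2% of all rows, and KO3 was the lowest in 7, against 18.7%. The part of cell makeup, or of the higher Trim28 RNA of that library, in the KO3 values was not tested. The median log2 fold change of the 18 was 0.17 without KO3 and 0.07 without KO2, against 0.12 with all libraries. In each case 0 were called. With Y-linked transcripts as a covariate the median was 0.12 and 0 were called.

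Per length, the order of levels differs from that of the counts. Counts of wild-type libraries were divided by the length of the matching GENCODE transcript, which was found for 17 of the 18 genes, Airn being the exception. Of these lengths 14 were used. H13 was left out because its transcript is matched to 2 RefSeq accessions, and Kcnq1ot1 and Mcts2 because the GENCODE transcript (93092 and 912 bases) is longer than the RefSeq gene (83437 and 799 bases). By that shared length H13 would be at 1364 normalized counts per kb (1326 to 1419 over WT1 to WT3). Among the 14 genes kept, Igf2r led with 1219 normalized counts per kb (1185 to 1285 over WT1 to WT3). Inpp5f (834), Zrsr1 (788) and Peg13 (746) came next, and the range of Zrsr1 overlapped those of both others. Copg2 was at 501 per kb, Impact at 371 and Blcap at 236, with ranges that did not overlap. Trappc9 was lowest at 18.2 per kb (13.3 to 25.2), below Ube3a at 30.3 (29.25 to 31.97), and the values of genes with several rows count 1 row only.

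A further 14 imprinted genes had a row but a mean normalized count under 10, and were not tested. Igf2, the insulin-like growth factor that drives fetal growth, had 1 read in the 3 wild-type and 1 in the 3 knockout libraries. Dlk1, a membrane regulator of fat cell formation, had 0 and 1 in a non-coding row, and Rian, a non-coding RNA of the same domain, had 2 and 2. Snurf had 0 and 1, Mkrn3, a ring finger gene of the Prader-Willi region, had 4 and 3, and Peg12 of that region had 3 and 7, all 7 in KO3. Grb10, an adaptor that dampens insulin signalling, had 1 and 4, the 4 again in KO3. No library held 10 reads of any of these 7 genes.

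Plagl1, a zinc finger gene that limits growth, had the most reads of the 14, with 3, 6 and 13 in WT1 to WT3 and 4, 7 and 4 in KO1 to KO3. The ratio of knockout to wild type was 0.596 (95% exact interval 0.288 to 1.20, for counting error only, reads being pooled within a group). Mest, a hydrolase gene of the mesoderm, had 10 and 14 reads in its main row, a ratio of 1.22 (0.505 to 3.08). Nnat, a small membrane protein gene of neurons inside Blcap, had 1 and 10 in its main row, 9 of the 10 in KO1. Its second row had 4 and 4 reads. Ppp1r9a, which encodes the actin-binding neurabin, had 3 reads in wild-type cells and 21 in knockout cells, all 21 in KO3, with 0 in KO1 and KO2. The counting interval of that ratio, 6.12 (1.83 to 32.03), leaves out the spread between libraries, which here is a single library that also held RNA of other cell types. What part those cells had was not tested.

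**Figure D4:**
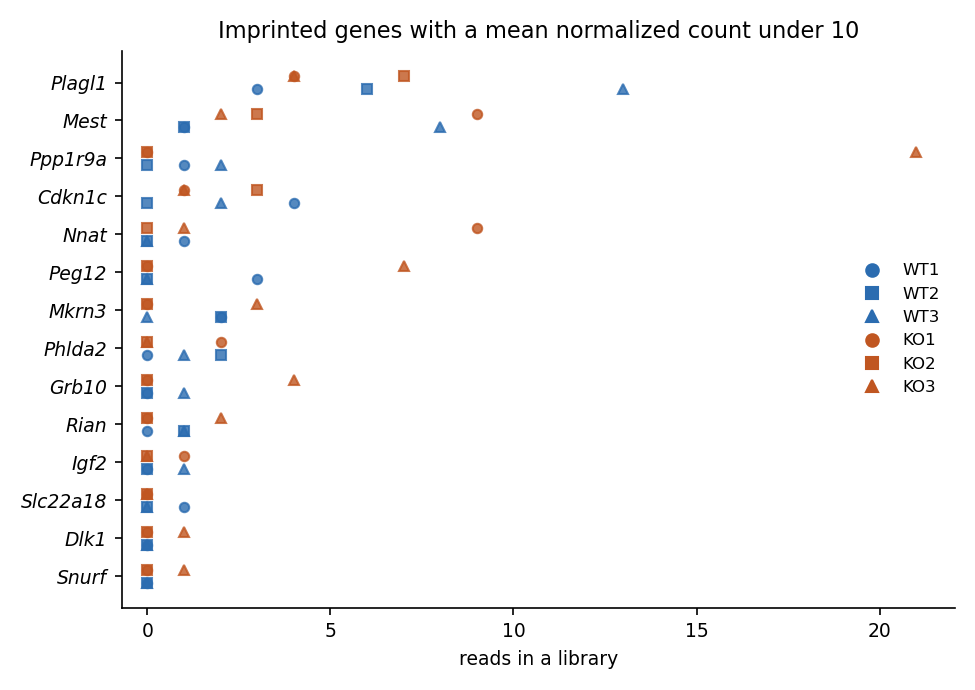
Recovered reads in each library (horizontal axis) for the 14 imprinted genes with a mean normalized count under 10, wild-type libraries in blue and knockout libraries in orange, with a symbol per library number. Most points lie between 0 and 4 reads, and the 21 reads of Ppp1r9a in KO3 and the 13 reads of Plagl1 in WT3 are the highest.

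The 17 genes without a matching row, not analysed here, were H19, Peg3, Peg10, Sgce, Snrpn, Ndn, Magel2, Meg3, Rtl1, Dio3, Mirg, Usp29, Zim1, Rasgrf1, Slc38a4, Tssc4 and Zdbf2. The table holds 0 rows without a read in any library. Nothing is read from the lack of a row.

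Genes beside the imprinted ones were read from the same fit. Within 500 kb of the start of 42 of the 49 genes lay 145 other tested genes, of which 2 rose and 0 fell (1.38%, against 1.61% of the 12030 genes tested), and 20 had an unadjusted p under 0.05 (13.8%, against 13.2%). Their median log2 fold change was -0.02. Gprin3, a gene named for binding G proteins, lies 437 kb upstream of the start of Nap1l5 and rose from 531, 808 and 755 to 1635, 1376 and 1541 (log2 fold change 1.14, SE 0.16, limma adjusted p 0.0094). Zcchc3, a nucleic acid binding cofactor of DNA and RNA sensors, lies 254 kb upstream of H13 and 272 kb upstream of Mcts2 and rose from 51.6, 50.6 and 25.5 to 122, 154 and 143 (log2 fold change 1.75, SE 0.29, limma adjusted p 0.0232). In both genes the groups lay apart, while the imprinted genes named beside them, Nap1l5, H13 and Mcts2, did not pass. Zcchc3 lost its call without KO1 (adjusted p 0.0757), without KO2 (0.134) and without the mean-variance trend (0.0789), and Gprin3 without KO1 (0.0520) and without the trend (0.0760). With 1 library left out their log2 fold changes ran from 1.43 to 1.92 for Zcchc3 and from 0.95 to 1.26 for Gprin3.

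**Figure D5:**
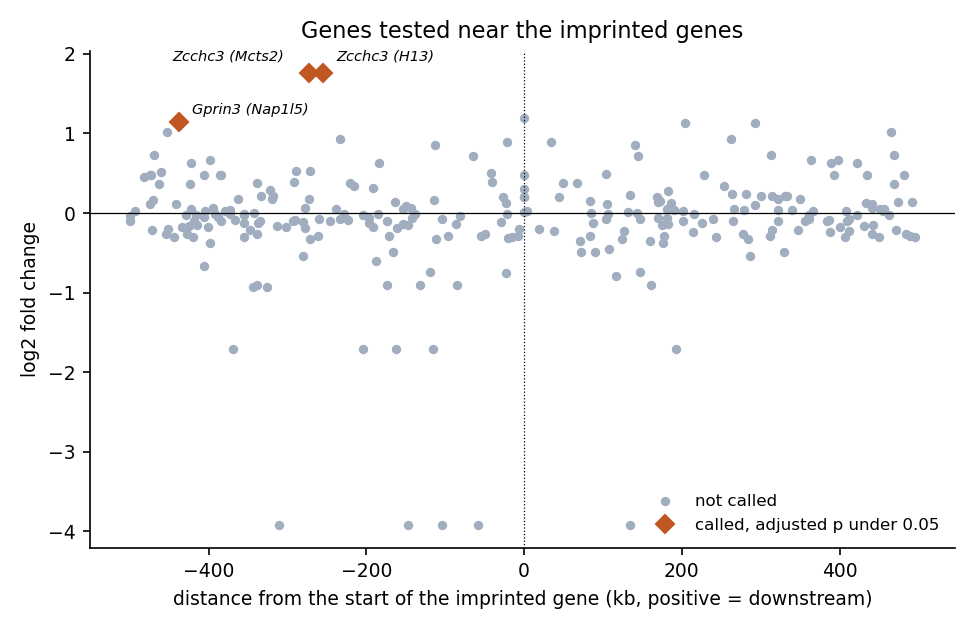
Log2 fold change (vertical axis) of the 145 other genes tested within 500 kb of an imprinted gene's start, by distance from that start along the gene's strand (horizontal, kb). A gene near several imprinted genes appears once for each, and diamonds mark Gprin3 and Zcchc3, the 2 called.

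RNA of proteins that keep imprints, or that act in histone or DNA methylation more widely, was followed as a list of 36 genes, of which 27 were tested. Trim28 fell, 0 rose and 26 did not pass, where 1.61% of all genes tested were called. With Trim28, 4 were at an unadjusted p under 0.05, against 13.2% of all genes, and the median log2 fold change was -0.01. The row found for Zfp57, a non-coding one, was almost unread, with 0 in 5 libraries and a normalized count of 0.80 in KO3. Nothing is read from it about the coding transcript. Setdb1 was not tested, since its row was under the filter, at a mean of 5.84 in wild-type and 8.39 in knockout libraries. Zfp445 was at 8703, 9248 and 8655 in wild-type and 9799, 10722 and 9882 in the knockout libraries (log2 fold change 0.19, SE 0.08, limma adjusted p 0.375). Ctcfl, the germ cell relative of Ctcf, had a mean under 10 and was not tested. It was at 1.39, 1.10 and 0.77 in wild-type cells and 12.9, 17.5 and 14.3 in knockout cells, with all knockout libraries above all wild-type ones, and is named here after its values were seen. Atf7ip, a partner that stabilises Setdb1, was at 6356, 8767 and 7336 against 15367, 13698 and 9297. Its log2 fold change of 0.75 (SE 0.19) did not pass (limma adjusted p 0.128) but did without KO3 (0.97, adjusted p 0.0026). Ctcf, the insulator protein of the H19 and Igf2 domain, was at 7792, 8817 and 8440 against 11611, 10967 and 9142 (limma adjusted p 0.232) and was likewise called without KO3 (log2 fold change 0.44, adjusted p 0.0324).

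Other genes in or beside imprinted domains, 65 by name and 33 tested, held 0 calls, against 1.61% of all genes, and 3 genes at an unadjusted p under 0.05, against 13.2%. Their median log2 fold change was -0.01. Atp10a, a lipid flippase gene next to Ube3a, was at 3450 ± 506 and 2647 ± 173 (SD, n = 3 per group; log2 fold change -0.37, limma adjusted p 0.220). Wdr25, beside the Dlk1 domain, was at 152 ± 18.9 and 195 ± 13.5, the transporter Slc22a2, beside Igf2r, at 13.7 ± 2.27 and 26.1 ± 7.09, and Npepl1, an aminopeptidase gene beside Gnas, at 2805 ± 69.1 and 2474 ± 256. Their adjusted p ran from 0.389 to 0.486. Gnasas1 (NR_002846), 0 kb from the start of Gnas, is an antisense RNA that stood among the 65 under its older name, Nespas. That name matched no row, so Gnasas1 was not among these 33 genes and is named here after its values were seen. It was not 1 of the 49 imprinted genes either, so the statements on those tested do not cover it. It was at 15.3, 12.1 and 30.1 in wild-type and 39.3, 33.5 and 55.8 in the knockout libraries, so the groups lay apart. Its log2 fold change was 1.19 (SE 0.41, interval 0.26 to 2.11, limma adjusted p 0.263). It was not called, but its interval includes a 2-fold rise.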

How the data were processed

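The data are RNA sequencing of naive CD4 T cells, 3 wild-type and 3 Trim28 KO libraries. The submitters' processing notes name STAR, HTSeq, DESeq2 and mm10, with no roles or versions. The authors deposited 1 table of 19048 RefSeq transcript rows whose values are on a log10 scale, found from the values: 10 to the value minus 1 gave multiples of 1 step per library, whole within 0.01 for 100% of values. These are read counts divided by a size factor, plus 1, in log10. Rows were named from RefSeq GRCm38.p6 (18811) and GENCODE M21 (104). 133 stayed unnamed.

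limma 3.58.1 in R 4.3.3 was fitted with trend on log2(normalized count + 1) over all 6 libraries, without covariates, for rows with a mean of at least 10. p-values are two-sided, adjusted by Benjamini-Hochberg over 13022 rows, with calls at 0.05. The fit was tested on simulated data. Exact intervals used SciPy 1.17.1. Nothing says that each library is 1 mouse, so p-values reflect only how these libraries vary, which may be technical. Named were all 49 genes, called genes within 500 kb of them, and the 4 smallest p of each gene list. The genes, lists and tests were chosen with earlier results of these data known. Alternatives were the pseudocount, filter, scaling, trend, voom weights, threshold, rows summed, a Y-linked covariate, a replicate block and leaving out each library.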

Additional observations from a re-analysis of the deposited data

How the results depend on the processing

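No imprinted gene was called under any of the settings tried, the smallest adjusted p of 1 of them being 0.132 (Nap1l5, without KO3), and the median log2 fold change of the genes tested stayed between 0.07 and 0.17. The count of all rows called went from 196 to 124 without the mean-variance trend and to 111 at an adjusted p under 0.01, and leaving out 1 library gave 114 (without KO2) to 562 (without KO3). Of the 18 genes, 9 kept their direction in every setting run. Sign changes by scaling or rows were H13 at -0.000168 (quantile normalization), Mcts2 at 0.0283 and Commd1 at 0.0165 (total count) and Gnas at -0.0653 (rows summed). With 1 library left out, ranges that crossed 0 were H13 -0.17 to 0.16, Trappc9 -0.053 to 0.40, Impact -0.0020 to 0.20, Nap1l4 -0.10 to 0.0171, Gnas -0.0359 to 0.24, Mcts2 -0.11 to 0.0681, Commd1 -0.11 to 0.0372, Inpp5f -0.0362 to 0.0934 and Kcnq1ot1 -0.00039 to 0.11. For the settings other than those with fewer samples, the cause was not tested. With a replicate block 175 rows and 0 imprinted genes were called. Whether the replicate numbers pair the libraries is not stated in the labels. Deviations of WT1 and KO1 correlated at -0.312, those of pairs 2 and 3 at 0.256 and 0.363, which does not settle it. Depth limits the 14 genes under the filter, where the most read, Plagl1, had 22 and 15 reads in the groups.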

Other observations

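Tnfrsf26, Tnfrsf22 and Tnfrsf23, receptor genes of the tumor necrosis factor family that lie beside the Kcnq1ot1 domain and were named here after their values were seen, spread widely within each group. Tnfrsf26 was at 993, 3311 and 412 in WT1 to WT3 and at 0, 1193 and 326 in KO1 to KO3. Tnfrsf22 was at 183, 578 and 110 against 77.1, 240 and 93.3, and Tnfrsf23 at 25.1, 90.2 and 9.27 against 2.14, 17.5 and 11.2. WT2 was the highest library of all 3 genes and KO1 the lowest, and limma adjusted p ran from 0.489 to 0.586. The imprinted genes of that domain that were tested, Kcnq1ot1 and Nap1l4, did not share this order of libraries.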
